A study of Mus musculus with 16 samples.

Results

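Keratins are the intermediate filament proteins of epithelial cells, and 9 of their genes were followed here across 13 mouse RNA libraries. The 9 genes were picked by symbol, with Ensembl identifiers matched to symbols for the MEF Oct4 library, from 49 keratin names shared by all 13 libraries and 19662 shared gene names in all. They comprise the simple-epithelium keratins Krt7, Krt8, Krt18 and Krt19, and the stratified-epithelium keratins Krt5, Krt14, Krt6a, Krt17 and Krt15. The rule that selects them is a list of names.

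The study asked how c-Jun moves embryonic stem cells (ESC) out of their state, and why c-Jun blocks reprogramming of fibroblasts while c-JunDN and Jdp2 can stand in for Oct4. c-Jun is a subunit of the AP-1 transcription factor, c-JunDN is its dominant-negative form, Jdp2 is an AP-1 family protein known as a repressor, and Oct4 (gene Pou5f1) is a pluripotency factor. RNA was sequenced from ESC, from mouse embryonic fibroblasts (MEF), and from MEF on day 3 after transduction with Klf4, Sox2 and c-Myc (KSM). All cells were from the OG2 transgenic background on a mixed 129SVJ, C57B6 and CBA strain, ESC at passage 5 and MEF at passage 2. The 3 ESC libraries were wild type (WT), a TetOn c-Jun line with doxycycline for 36 h, and that line without doxycycline. The 6 MEF libraries were WT and cultures overexpressing DR, c-Jun, c-JunDN, Jdp2 or Oct4. To KSM, 4 libraries added Jdp2, c-JunDN, Oct4 or DR. DR is not spelled out in the labels and served as the matched control. Each group had 1 library, so no difference below has a replicate check, and every interval is a 95% interval for counting error alone.

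Keratin filaments are built from obligate partners, 1 type II chain (Krt7, Krt8, Krt5, Krt6a) with 1 type I chain (Krt18, Krt19, Krt14, Krt17, Krt15). Krt8 and Krt18 are the earliest keratins of the embryo and mark simple epithelia, Krt7 and Krt19 accompany them in ducts, trophectoderm and mesothelium, and Krt5 with Krt14 or Krt15 mark the basal layer of stratified epithelia. Krt6a and Krt17 are known as stress and wound keratins of the epidermis and its appendages. Fibroblasts build their filaments mainly from vimentin.

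Levels are given as CPM, counts scaled to library size by TMM, when 1 gene is compared between libraries, and as TPM, which is per length, when genes are compared. A gene counted as measured where either library of a comparison reached 5 CPM, and calls of higher or lower needed a 2-fold difference on the log2(CPM + 1) scale. Totals on shared genes were 11256896 in WT ESC and 20715277 in WT MEF but only 1834554 to 3104159 in the other 11 libraries, where 3 counts correspond to 0.908 to 1.61 CPM. The delivered genes followed the labels: Jun was at 2175.4 CPM with doxycycline against 23.2 CPM without, at 12883.9 CPM in MEF with c-Jun against 94.5 CPM with DR, and at 378 CPM in KSM with c-JunDN against 73 CPM with DR. Pou5f1 was at 10384.7 CPM in MEF with Oct4 and 1860.5 CPM in KSM with Oct4, and Jdp2 was at 7742 CPM in MEF and 403 CPM in KSM with Jdp2. The 10 fibroblast markers summed to 11836.5 to 58132.5 CPM in the 6 MEF libraries and to 1382.3 to 2244.3 CPM in KSM, and the 8 ESC markers to 5579.4 CPM in WT ESC and 1334.3 CPM in induced ESC. In bulk RNA, fewer cells of a type and less RNA per cell cannot be told apart.

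Krt8 and Krt18 stand next to each other on chromosome 15 with no coding gene between them, and their promoters are shown because these partners were both higher after c-Jun in ESC, while c-JunDN and Jdp2 in KSM gave them different calls. The sequences are RefSeq promoter entries on GRCm38.p6, 250 bases before to 30 after the annotated start, at chr15:102004313-102004592 on the minus strand for Krt8 and chr15:102027966-102028245 on the plus strand for Krt18. Capitals mark TATAAA read on either strand, the core of the TATA box.
Krt8: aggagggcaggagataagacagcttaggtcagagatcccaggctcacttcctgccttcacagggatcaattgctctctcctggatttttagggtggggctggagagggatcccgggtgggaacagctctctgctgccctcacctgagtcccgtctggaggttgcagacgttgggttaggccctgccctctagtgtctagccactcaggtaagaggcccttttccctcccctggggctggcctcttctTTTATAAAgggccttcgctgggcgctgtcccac
Krt18: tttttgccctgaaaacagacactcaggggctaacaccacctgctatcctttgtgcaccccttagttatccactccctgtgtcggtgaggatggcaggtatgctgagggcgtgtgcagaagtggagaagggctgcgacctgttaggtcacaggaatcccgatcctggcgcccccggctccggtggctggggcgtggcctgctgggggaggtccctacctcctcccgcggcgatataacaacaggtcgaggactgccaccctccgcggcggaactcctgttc
In all, 5 motifs were searched on both strands of the 300 bases of each entry: the AP-1 motif TGANTCA, the CRE motif TGACGTCA, the TATA box core TATAAA, the GRHL motif AACCGGTT and the octamer ATGCAAAT. Promoter entries matched 5 of the 9 keratins (Krt7, Krt8, Krt18, Krt5 and Krt14), and the Krt14 entry is that of a start inside the gene. Krt8 held TATAAA in both orientations with overlapping letters at the annotated start, a motif in 13.6% of 32851 promoters. Krt18, Krt7, Krt5 and Krt14 held none of the motifs, and TGANTCA, which 7.81% of all promoters held, was in none of the 5. GC content was 58% for Krt8, 61.3% for Krt18, 66.3% for Krt7, 57.7% for Krt5 and 48.3% for Krt14, beside a median of 52.7% over all promoters.

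Krt8 had the widest range of CPM of the 9 genes. In ESC its level was 1.84 CPM in WT, 25.2 CPM in the uninduced line and 2356.5 CPM in the induced line. In MEF it ranged from 0 CPM (WT and Jdp2) to 3.04 CPM (c-JunDN). In KSM it was 561 CPM with DR, 41.5 CPM with Oct4, 213 CPM with c-JunDN and 417 CPM with Jdp2. Every KSM library and both libraries of the TetOn line lay above all 6 MEF libraries, which held at most 7 Krt8 counts each. Krt18, the type I partner, was at 2.62 CPM in WT ESC, 17.3 CPM uninduced and 916 CPM induced. It ranged from 1.3 to 4.65 CPM in MEF, and was 19.7 CPM with DR, 7.27 CPM with Oct4, 19.9 CPM with c-JunDN and 42.7 CPM with Jdp2 in KSM. WT ESC thus lay within the MEF range for Krt18, while every KSM library and both libraries of the TetOn line lay above it.

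Krt19, a type I keratin that fits with Krt8 in ducts and mesothelium, was the member best detected in fibroblasts. Its level was 0.776 CPM in WT ESC, 2.97 CPM uninduced and 546 CPM induced. In MEF it was 5.4 CPM in WT, 11.9 CPM with DR, 4.84 CPM with c-Jun, 3.48 CPM with c-JunDN, 5.35 CPM with Jdp2 and 21.3 CPM with Oct4. In KSM it was 155 CPM with DR, 8.17 CPM with Oct4, 40.1 CPM with c-JunDN and 114 CPM with Jdp2, so the KSM library with Oct4 overlapped the MEF range and the other 3 did not. Krt7, a type II keratin of ducts and mesothelium, reached 43.5 CPM in induced ESC and 5.68 CPM in MEF with DR and stayed under 5 CPM in the other 11 libraries, 0 counts among them in MEF with c-Jun and in KSM with Oct4.

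Among the stratified keratins, Krt6a was at 103 CPM in induced ESC, 35.3 CPM in KSM with DR, 24.9 CPM with Jdp2, 4.04 CPM with c-JunDN and 1.82 CPM with Oct4. It had 0 counts in the other 8 libraries, both deep WT libraries included. Krt14, the basal type I chain, was instead highest in KSM, at 23.7 CPM with DR, 22.3 CPM with Jdp2, 6.4 CPM with c-JunDN and 3.94 CPM with Oct4, and it had 5 counts (1.83 CPM) in induced ESC. Its basal partner Krt5 passed 5 CPM in 1 library, KSM with Jdp2 (11.1 CPM), and was next highest in induced ESC at 4.76 CPM. Krt17 passed 5 CPM only in induced ESC (22 CPM) and was at 1.48 CPM or less in the other 12 libraries. Krt15, a basal keratin of hair follicle and oesophagus, reached 5 CPM in no library, with its highest level of 2.23 CPM in KSM with Jdp2. Fractional expected counts (281.22 for Krt6a in induced ESC, 59.37 for Krt14 in KSM with DR) show that reads were divided among related genes, so the split of Krt6a from Krt6b, and of Krt14 from Krt16, Krt17 and Krt42, is uncertain. Krt7, Krt18 and Krt15 had whole expected counts in all 13 libraries.

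**Figure D1:**
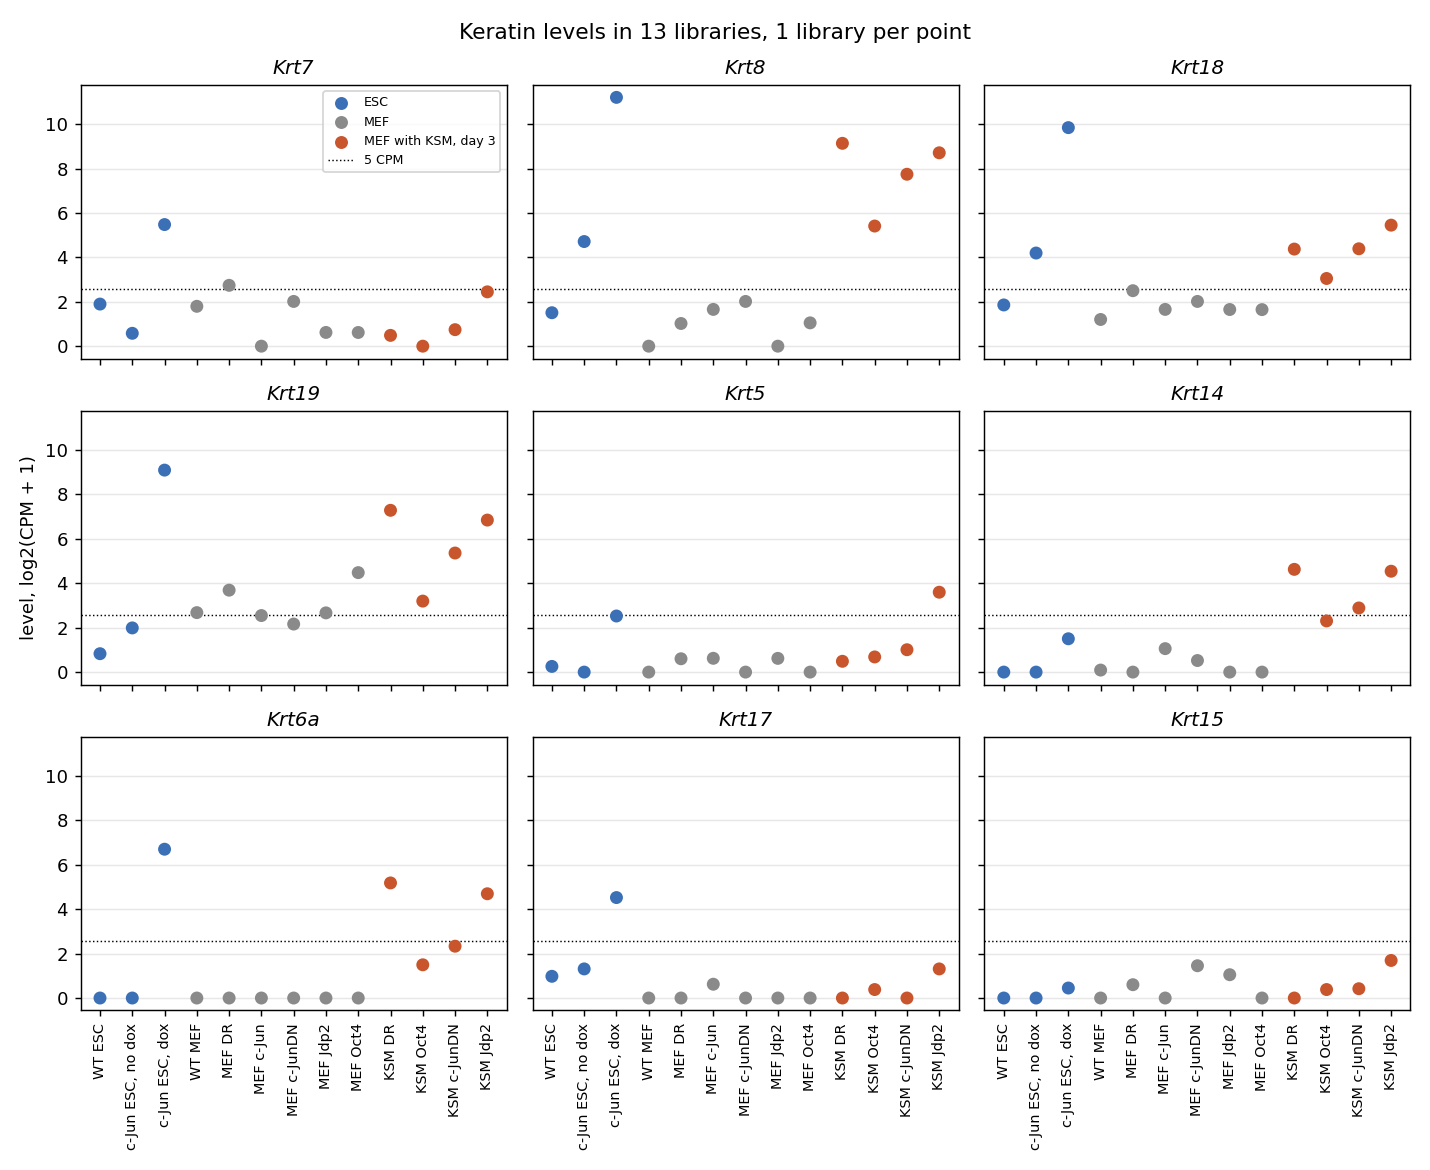
Level of each keratin as log2(CPM + 1) on the vertical axis in the 13 libraries on the horizontal axis, with 1 library per point, coloured by cell type, and a dotted line at 5 CPM. Krt8, Krt18, Krt19 and Krt6a stand highest in the c-Jun ESC with doxycycline, Krt14 in KSM, and Krt15 stays under the line in all 13.

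Per length, the 9 genes together made up 5336.2 TPM in induced ESC, 879 TPM in KSM with DR, 761 TPM with Jdp2, 331 TPM with c-JunDN and 69.4 TPM with Oct4. The same sum was 10.8 TPM in WT ESC, 49.3 TPM in uninduced ESC and between 13 and 41.6 TPM in the 6 MEF libraries. The order of the genes differed between induced ESC and KSM. In induced ESC it ran Krt8 (2844.1 TPM), Krt18 (1427.1 TPM), Krt19 (867 TPM), Krt6a (99.2 TPM), Krt7 (59.8 TPM) and Krt17 (31.6 TPM). In KSM with DR it ran Krt8 (584 TPM), Krt19 (212 TPM), Krt6a (29.2 TPM), Krt14 (26.9 TPM) and Krt18 (26.4 TPM), the last 3 of which lay close together. Krt8 alone was 53.3% of the summed TPM in induced ESC and 60.5% to 70.2% in the KSM libraries. In WT MEF the order was Krt19 (7.91 TPM), Krt7 (3.13 TPM) and Krt18 (1.87 TPM), with Krt8 at 0 counts.

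The balance of Krt8 to its partner Krt18 shifted between cell states. The ratio of their TPM was 0.541 (interval 0.284 to 1.01) in WT ESC, 1.13 (0.72 to 1.79) in uninduced ESC and 1.99 (1.9 to 2.09) in induced ESC. In KSM it was 22.1 (16.6 to 30) with DR, 4.42 (2.85 to 7.14) with Oct4, 8.3 (6.35 to 11) with c-JunDN and 7.58 (6.25 to 9.26) with Jdp2. The interval of the DR library overlapped none of the other 6, and those of Oct4, c-JunDN and Jdp2 overlapped one another. Krt8 thus exceeded its partner in induced ESC and in every KSM library. For Krt19, another type I partner, the Krt8 to Krt19 TPM ratio was 6.46 (2.77 to 18.4) in uninduced ESC, 3.28 (3.1 to 3.47) in induced ESC and from 2.75 (2.45 to 3.08) to 4.04 (3.31 to 4.95) in KSM. In MEF, where Krt19 exceeded Krt8, it was 0.0661 (0.00755 to 0.267) with DR and 0.0364 (0.00426 to 0.14) with Oct4, each from 2 Krt8 counts. Among the stratified keratins the TPM ratio of Krt6a to Krt14 was 45.3 (19.2 to 141) in induced ESC and 1.08 (0.771 to 1.53) in KSM with DR. The Krt5 to Krt14 ratio was 0.376 (0.234 to 0.592) in KSM with Jdp2 and 0.0144 (0.000359 to 0.0836, from 1 Krt5 count) in KSM with DR.

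**Figure D2:**
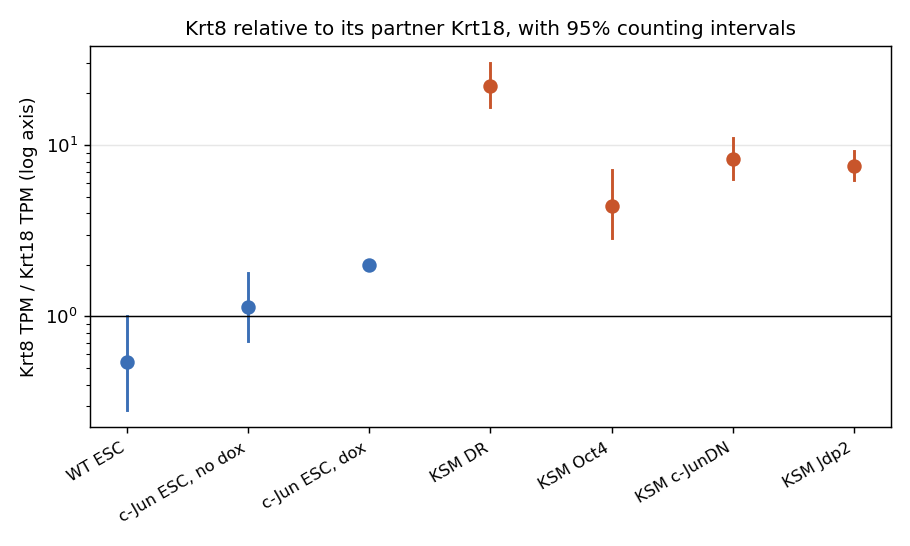
Ratio of Krt8 TPM to Krt18 TPM on a log axis, with 95% counting intervals, in the 7 libraries of ESC and KSM, 1 library per point. The ratio is 0.541 in WT ESC, 1.99 in induced ESC and 22.1 in KSM with DR, the highest of the 7.

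After induction of c-Jun in ESC the simple keratins and the stress keratins were higher. All 6 measured members were higher with doxycycline and none was lower, where 21.5% of 11008 measured genes were higher and 19.3% lower. Of these 6, only Krt8 and Krt18 reached 5 CPM without doxycycline. The higher calls of Krt7, Krt19, Krt6a and Krt17 thus partly restate the 5 CPM minimum. Krt8 rose from 25.2 to 2356.5 CPM, 93.5-fold (71 to 126), and Krt18 rose from 17.3 to 916 CPM, 53-fold (38 to 76.2). Krt19 rose from 2.97 to 546 CPM, 184-fold (84.4 to 503). These 3 genes held most of the keratin RNA of both libraries of the line, and the other members started from 3 counts or fewer. Krt7 rose from 1 to 119 counts, a ratio of 88.1 (15.5 to 3507.4), and Krt17 from 3 to 60 counts, a ratio of 14.8 (4.83 to 73.8). Krt6a went from 0 to 281 counts, at least 69.3-fold higher. Krt5 (0 to 13 counts), Krt14 (0 to 5 counts) and Krt15 (0 to 1 count) stayed under 5 CPM. The median log2 change over all 9 was 4.90, beside -0.08 over all measured genes.

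The uninduced line itself was above WT ESC for the Krt8 and Krt18 partners. Krt8 was 13.7-fold (7.94 to 24.5) and Krt18 6.6-fold (3.88 to 11.3) higher without doxycycline than in WT ESC, the only 2 members measured there, where 6.28% of genes were higher and 18.5% lower. Both reached 5 CPM in the uninduced line and not in WT ESC, so these 2 calls partly restate the 5 CPM minimum. Against WT ESC the same 6 members (Krt7, Krt8, Krt18, Krt19, Krt6a and Krt17) were higher in induced ESC, where 14.7% of genes were higher and 23.2% lower. No member reached 5 CPM in WT ESC, so these higher calls also partly restate that minimum. Of 40 other keratins, 4 were measured on induction. Krt16, a wound keratin that pairs with Krt6a, was at least 32.6-fold higher (0 to 132 counts), Krt80 at least 9.37-fold higher and Krt13 29.6-fold higher (5.02 to 1198.1, from 1 count). Krt42 was 4.73-fold lower (1.49 to 19.7). Each of these 4 reached 5 CPM in only 1 of the 2 libraries, so their calls partly restate the 5 CPM minimum.

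Genes that anchor keratins were also higher with doxycycline, from a control in which many lay below WT ESC. Of the 15 measured desmosome and anchor genes 11 were higher and 1 lower on induction, led by the desmosomal cadherin Dsc2 (162 against 0.494 CPM), the p53-inducible desmosome component Perp (313 against 3.46 CPM) and desmoplakin Dsp, which ties keratins to the desmosome (972 against 21.3 CPM, and 172 CPM in WT). In the uninduced line 9 of 14 measured anchors were lower than in WT ESC and none was higher, and against WT ESC 9 of 15 anchors were higher and 1 lower in induced ESC. The median log2 change of the anchors was 2.40 against the uninduced line and 1.29 against WT. Of 16 measured simple-epithelium genes 13 were higher and none lower, among them Lamb3 (69.1 against 1.48 CPM) and Sfn (462 against 21.8 CPM), and against WT ESC 9 of 17 were higher and 1 lower. In the uninduced line 7 of 15 of these genes were lower than in WT ESC and 3 higher. Of 6 measured cornified-envelope genes 5 were higher and 1 lower, led by Cdsn (118 against 2.47 CPM). Among 14 measured epithelial transcription regulators 8 were higher and 2 lower. Among those higher were the mesenchymal regulators Snai1 (61.1 against 3.46 CPM) and Zeb2 (25.2 against 1.48 CPM). Grhl2, a regulator of epithelial junction genes, was at 24.9 against 65.7 CPM, with 5.05 CPM in WT ESC, so its direction turns with the control. Trp63, the basal keratinocyte regulator, had 0 counts with doxycycline, and Cdh1 was at 995 against 437 CPM, with 954 CPM in WT ESC. Of 13 other measured intermediate filament genes 6 were higher and 5 lower, led by desmin (Des) at 228 against 5.93 CPM, the lamin A/C gene Lmna at 269 against 7.91 CPM and peripherin (Prph) at 28.9 against 2.97 CPM.

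Markers of several cell types moved with the keratins in induced ESC. Of 9 keratinocyte markers other than keratins, 3 reached 5 CPM and Trp63, Dsg3, Lor and Ivl had 0 counts. Their sum was 783 CPM against 26.2 CPM uninduced, most of it from Sfn and Perp, which are named above in other lists. Of 11 trophoblast markers 5 reached 5 CPM, among them Hand1 at 360 against 2.47 CPM, while Prl3d1, Prl2c2 and Tpbpa had 0 counts, and the sum was 535 against 48 CPM. The 8 mesothelial markers other than Krt19 summed to 567 against 32.1 CPM, of which Msln gave 510 CPM, with Upk3b and Gpm6a at 0 counts. The 10 fibroblast markers summed to 561 against 28.2 CPM and to 1321.9 CPM in WT ESC, and Lum had 0 counts when induced. Col1a1 alone gave 508 CPM of the induced sum. The 9 keratins did not exceed 41.6 TPM in any MEF library and were at 5336.2 TPM in induced ESC. The part of these cell types, fibroblasts included, in the keratin levels was not tested.

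**Figure D3:**
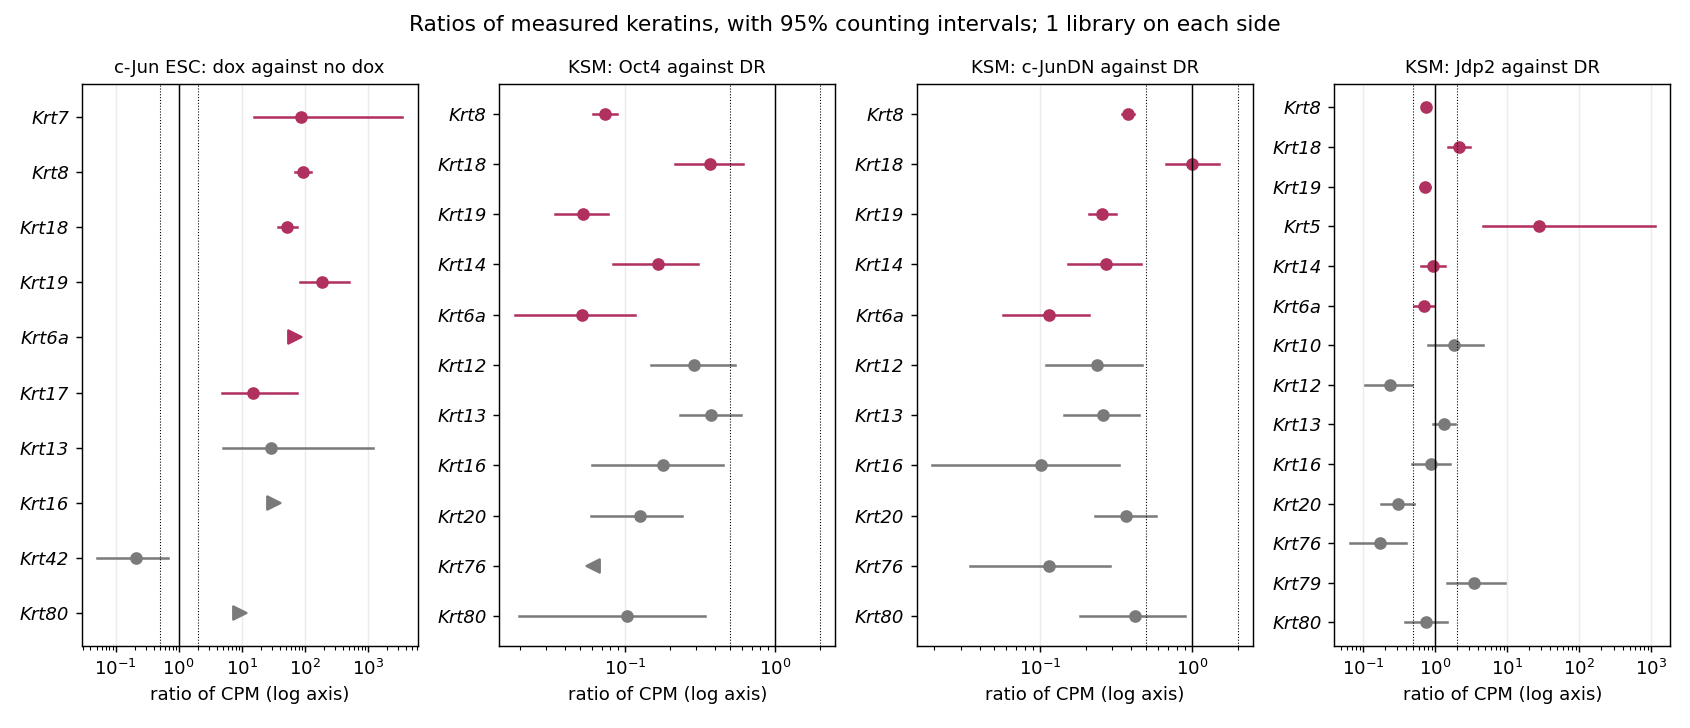
Ratio of CPM on a log axis for each measured keratin in 4 comparisons, treated over control library, members in red and other keratins in grey, with 95% counting intervals as bars, dotted lines at 2-fold and triangles for bounds against 0 counts. All 6 members are higher with c-Jun in ESC, all 5 measured are lower with Oct4 in KSM, and with Jdp2 in KSM the members Krt18 and Krt5 and the other keratin Krt79 are higher.

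In MEF the stratified keratins, Krt8 and Krt18 lay near the counting floor under every condition, and the 4 comparisons share the DR library as control. Krt7 and Krt19 were the only members measured, mostly through their level in the DR library, so a count of lower calls among them partly restates the 5 CPM minimum. The median log2 change over all 9 members was 0.00 in each of the 4 comparisons. With c-Jun both were lower, where 9.64% of 11022 measured genes were lower and 8.35% higher. Krt7 went from 11 to 0 counts, at least 3.52-fold lower, and Krt19 from 23 to 9 counts, 2.45-fold lower (1.09 to 6.02). With c-JunDN, Krt19 was 3.42-fold lower (1.47 to 8.83), where 2.84% of genes were lower and 3.26% higher, and Krt7 was not called (3.04 against 5.68 CPM). With Jdp2 both were lower, where 6.46% of genes were lower and 5.9% higher. Krt7 had 1 against 11 counts (10.6-fold, 1.54 to 456) and Krt19 10 against 23 counts (2.22-fold, 1.02 to 5.22). With Oct4, Krt7 again had 1 against 11 counts (10.7-fold lower, 1.55 to 458), where 10.3% of genes were lower and 11.6% higher. Krt19 had 40 against 23 counts with Oct4, a ratio of 1.8 (1.05 to 3.14) that missed the 2-fold call. The MEF Oct4 library was counted on other gene models than DR and WT. The part of this in its differences was not tested.

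Against the WT culture in place of DR, none of these calls was made. Krt7 lay under 5 CPM on both sides, and Krt19 was the only measured member in each of the 4 cultures and was called in 1, at 21.3 CPM with Oct4 against 5.4 CPM in WT MEF, where 14.6% of genes were higher and 14.8% lower. The shares of genes higher and lower than WT were 11.3% and 13.6% with c-Jun, 10.3% and 11.3% with c-JunDN, and 12% and 14.6% with Jdp2. DR itself was above WT for Krt19, with a ratio of 2.2 (1.32 to 3.52), where 9.45% of genes were higher and 10.6% lower, and Krt7 had a ratio of 2.29 (1.06 to 4.58) that missed the call on the log2(CPM + 1) scale. The 8 mesothelial markers other than Krt19 summed to 67.6 CPM with DR, 29.4 CPM in WT, 23.7 CPM with c-Jun, 37.4 CPM with c-JunDN, 46.6 CPM with Jdp2 and 41.6 CPM with Oct4. All 8 were detected in each MEF library but that with c-Jun, where Upk3b, Upk1b and Gpm6a had 0 counts. Their part in the Krt7 and Krt19 levels was not tested. Krt8 (0 to 7 counts) and Krt18 (4 to 20 counts) stayed under 5 CPM in all 6 MEF libraries, as did Krt5, Krt14, Krt6a, Krt17 and Krt15. Of the other keratins Krt20, a keratin of gut and urothelial surface cells, was measured in WT MEF alone, at 8.86 CPM against 1.55 CPM with DR.

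After 3 days of KSM, Krt8, Krt18, Krt19, Krt14 and Krt6a were higher and Krt7 was lower than in fibroblasts. Against MEF with DR, KSM with DR had 5 members higher and 1 lower, where 18.8% of 11206 genes were higher and 20% lower. The median log2 change over all 9 members was 1.87, beside 0.06 over all measured genes. Krt8 went from 2 to 1398 counts, a ratio of 543 (150 to 4489.1), Krt19 rose 13.1-fold (8.59 to 20.9) and Krt18 4.23-fold (2.06 to 9.8). Krt6a was at least 22.8-fold and Krt14 at least 15.3-fold higher, both from 0 counts. Krt7 went from 11 to 1 counts, 14.2-fold lower (2.06 to 609). Krt5 had 1 count in each, and Krt17 had 0 counts in each. All 6 other measured keratins (Krt12, Krt13, Krt16, Krt20, Krt76 and Krt80) were higher, from 8.82 CPM for Krt80 to 26.5 CPM for Krt20 in KSM. They reached 5 CPM in KSM and not in MEF with DR, as did Krt8, Krt18, Krt14 and Krt6a. Their higher calls thus partly restate the 5 CPM minimum.

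Genes that anchor keratins were mostly higher too. Of 14 measured desmosome and anchor genes 10 were higher in KSM and 1 lower, led by Dsp (586 against 1.03 CPM), Pkp1 (162 CPM against 0 counts) and Itgb4 (209 against 7.23 CPM), the hemidesmosomal integrin. All 11 measured simple-epithelium genes were higher, Cdh1 among them at 32.9 CPM against 0 counts. Of 10 measured fibroblast markers 9 were lower. All 4 measured keratinocyte markers were higher, Krt14 among them, and the 9 other than keratins summed to 455 CPM in KSM against 33.5 CPM in MEF, while Trp63 had 0 counts in both and Grhl2 had 0 counts in KSM. The 8 mesothelial markers other than Krt19 summed to 44.1 against 67.6 CPM, with Msln at 35.3 against 15.5 CPM and Wt1 and Lrrn4 at 0 counts in KSM. The part of such cells in the KSM keratin levels was not tested. Vimentin stayed high, at 3311.6 CPM in KSM against 3434.3 CPM in MEF with DR.

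Keratins were lower in KSM with Oct4 than with DR. The 3 KSM comparisons share the KSM DR library as control. All 5 measured members were lower with Oct4, where 6.85% of 10587 genes were lower and 4.79% higher. The median log2 change was -3.69 over these 5 and -1.32 over all 9 members, beside 0.07 over all measured genes. Krt19 fell from 155 to 8.17 CPM, 19-fold (12.8 to 29.2), and Krt8 from 561 to 41.5 CPM, 13.5-fold (11.3 to 16.2). Krt6a fell from 35.3 to 1.82 CPM, 19.4-fold (8.58 to 54.4), Krt14 from 23.7 to 3.94 CPM, 6.01-fold (3.26 to 12), and Krt18 least, from 19.7 to 7.27 CPM, 2.7-fold (1.63 to 4.61). Krt7, Krt5, Krt17 and Krt15 had at most 2 counts on either side. All 6 other measured keratins were lower too, from Krt13 at 2.65-fold (1.67 to 4.29) to Krt76, at least 16.3-fold lower. Of these 2 libraries, only DR reached 5 CPM for Krt14, Krt6a, Krt12, Krt16, Krt20, Krt76 and Krt80. Their lower calls thus partly restate the 5 CPM minimum.

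In the lists of other epithelial genes, lower calls outnumbered higher ones, and many genes were not called. Cdh1, at 40.9 CPM with Oct4 against 32.9 CPM with DR, and Epcam, at 23.9 against 14.4 CPM, were within 2-fold. Of 14 measured anchors 5 were lower and 1 higher. The cell-envelope plakin Ppl (9.38 against 48.1 CPM) and Dsc2 (11.8 against 48.5 CPM) were lower, and plakophilin Pkp2, a plaque protein of simple epithelia and heart, was 7.51-fold higher. Of 11 measured simple-epithelium genes 6 were lower and 5 neither, led by Lamb3 (0.908 against 15.2 CPM). Of 10 measured epithelial regulators 5 were lower, 3 neither and 2 higher, among them Esrp2, a splicing regulator, at 2.87-fold higher. That list also holds the mesenchymal regulators Snai1, Snai2, Zeb1 and Zeb2, so its counts do not give a direction for epithelial regulators alone. All 4 measured cornified-envelope genes were lower. The 8 ESC markers summed to 2628.5 CPM with Oct4, of which the delivered Pou5f1 made up 1860.5 CPM, against 645 CPM with DR. Sox2, delivered in every KSM library, is also among these markers. Only 1 of the 8 reached 5 CPM with DR and 3 with Oct4.

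With c-JunDN in KSM most measured keratins were lower, and Krt18 was not. Of 5 measured members 4 were lower, where 1.73% of 10556 genes were lower and 1.71% higher. The median log2 change was -1.74 over these 5 and 0.00 over all 9 members, beside 0.03 over all measured genes. Krt6a fell 8.73-fold (4.75 to 17.5), Krt19 fell 3.87-fold (3.14 to 4.79), Krt14 fell 3.7-fold (2.17 to 6.56) and Krt8 fell 2.63-fold (2.39 to 2.9). Krt18 was at 19.9 against 19.7 CPM, a ratio of 1.01 (0.681 to 1.51). All 6 other measured keratins were lower as well, from Krt80 at 2.38-fold (1.11 to 5.44) to Krt16 at 9.92-fold (3.03 to 51.3). For Krt6a, Krt12, Krt16, Krt76 and Krt80 only DR reached 5 CPM here, so their lower calls partly restate that minimum. Of 14 measured anchors 3 were lower (Itgb4, Ppl and Dsp) and none higher, and Cdh1 was at 21.9 CPM.

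With Jdp2 in KSM Krt8, Krt19, Krt14 and Krt6a were within 2-fold of DR, and Krt18 and Krt5 were higher. Of 6 measured members 2 were higher and none lower, where 3.18% of 10641 genes were higher and 1.33% lower. The median log2 change was -0.25 over these 6 and 1.08 over all 9 members, beside -0.02 over all measured genes. Krt18 rose from 19.7 to 42.7 CPM, 2.17-fold (1.54 to 3.1), and Krt5 from 1 to 30 counts, a ratio of 27.8 (4.62 to 1132.9). Krt8 had a ratio of 0.744 (0.687 to 0.806), Krt19 of 0.732 (0.628 to 0.853), Krt6a of 0.705 (0.505 to 0.98) and Krt14 of 0.941 (0.646 to 1.37), none of which was called. Under the 5 CPM minimum, Krt7 had 12 against 1 counts, Krt15 6 against 0 and Krt17 4 against 0, and with no minimum 5 members passed the 2-fold call. Of 8 other measured keratins the wound keratin Krt16 (8.91 against 10 CPM), Krt13, Krt80 and Krt10 were not called, Krt76 (5.71-fold), Krt12 (4.21-fold) and Krt20 (3.24-fold) were lower, and Krt79 was 3.44-fold higher (1.45 to 9.38). Krt5 and Krt79 reached 5 CPM with Jdp2 alone, and Krt76 and Krt12 with DR alone. Their calls thus partly restate the 5 CPM minimum. Cornified-envelope genes were split, 2 of 6 higher (Ivl and Sprr2a1) and 2 lower.

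Set directly against each other, KSM with Oct4 had 3 of 4 measured members lower than KSM with c-JunDN, where 7.51% of genes were lower and 3.95% higher. These were Krt8 at 5.14-fold (4.26 to 6.22), Krt19 at 4.91-fold (3.21 to 7.75) and Krt18 at 2.74-fold (1.68 to 4.6). Krt14 was not called, with 13 against 19 counts. Against KSM with Jdp2 all 6 measured members were lower with Oct4, where 9.49% of genes were lower and 4.68% higher. Among them were Krt19 at 13.9-fold (9.37 to 21.4), Krt8 at 10.1-fold (8.42 to 12.1) and Krt5 at 18.4-fold (4.67 to 159, from 2 counts). Krt5, Krt14 and Krt6a reached 5 CPM with Jdp2 and not with Oct4, so their lower calls partly restate the 5 CPM minimum. Over all 9 members the median log2 change with Oct4 was -0.74 against c-JunDN and -2.45 against Jdp2. The 9 keratinocyte markers other than keratins summed to 455 CPM with DR, 234 CPM with Oct4, 289 CPM with c-JunDN and 307 CPM with Jdp2, and the 10 fibroblast markers to 1382.3, 1608.3, 1758.1 and 2244.3 CPM. In the same order, the 8 mesothelial markers summed to 44.1, 31.2, 36.7 and 114 CPM, with Msln at 96.9 CPM with Jdp2, and the 11 trophoblast markers to 9.22, 6.05, 16.8 and 21.2 CPM. Trp63 had 0 counts in 3 of the 4 KSM libraries and was at 0.605 CPM with Oct4. The part of these cell types in the differences between KSM libraries was not tested.

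Across the 13 libraries Krt8, Krt18, Krt19 and Krt6a had similar patterns, while r between Krt7 and Krt8 was 0.36. Pearson's r of log2(CPM + 1) was 0.90 for Krt8 with Krt18, 0.93 for Krt8 with Krt6a and 0.93 for Krt19 with Krt6a. It was 0.88 for Krt18 with Krt6a, 0.83 for Krt8 with Krt19 and 0.82 for Krt18 with Krt19. These values describe 13 libraries that share cell types, depth and controls. Without the induced ESC library the values were, in the same order, 0.94, 0.90, 0.88, 0.81, 0.75 and 0.69. Krt7 and Krt17 rested on that library, with r of 0.75 for the 13 and 0.08 for the other 12. Krt14 followed Krt6a (0.97 against 0.76) and Krt8 (0.92 against 0.78) more closely without the induced ESC library. Among 11689 other genes the 5 most like Krt8 were Phlda2 (0.957), an imprinted placental gene, Men1 (0.943), Asl (0.939), Serinc5 (0.927) and Sirt7 (0.922), and their r without induced ESC was 0.893 to 0.956. A high r does not mean a change of like size. Krt8 ranged from 0 to 2356.5 CPM, Phlda2 from 0 to 26 CPM and Men1 from 47.1 to 114 CPM. Asl ranged from 24.3 to 80.5 CPM, Serinc5 from 27.4 to 327 CPM and Sirt7 from 11.9 to 46.8 CPM. The 5 most like Krt17 were Rasd2 (0.907), Pfkfb4 and Zfp513 (both 0.888), Slc2a1 (0.876), the glucose transporter, and Hdac6 (0.872), and without induced ESC r lay between -0.076 and 0.846.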

How the data were processed

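RNA reads of 13 libraries were sequenced from TruSeq libraries, per the labels' protocols. Tools named without a role are bcl2fastq 2.15.0.4, Bowtie2 2.2.3 and RSEM 1.1.21, and the build is mm9, per the submitters' processing notes. Expected counts, as the authors deposited them, hold fractions of reads and were rounded to whole numbers. A fraction, the deposited share of all transcripts that a gene takes in 12 libraries, sums to 1 and was scaled to TPM. The deposited MEF Oct4 library holds expected counts, TPM and FPKM on Ensembl genes, per the file headers. Its FPKM and gene lengths were not used. Of its 27729 identifiers 27247 had a symbol, and 19662 names, with 96.89% of its counts, were shared with the 20325 names of the others, synonyms included. The annotations differ, so counts, CPM and TPM of that library are all on other gene models. For Krt7, 1 count was 1.81 TPM there and 0.737 TPM in MEF with Jdp2. No 2 libraries held identical counts.

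Counts were scaled by TMM (edgeR 4.0.16, R 4.3.3; DESeq2 1.42.0 for size factors). Differences are on the log2(CPM + 1) scale, with 1 CPM as pseudocount, which understates changes of low genes. Ratios carry exact conditional binomial 95% intervals (scipy 1.17.1), which cover counting error only, since PCR reads are not independent molecules. With 0 counts on one side a fold is a bound against 3 counts per library, and no fold is given with both at or under 3. With 1 library per group no test was made. The calculation was checked on simulated data. The 8 main comparisons set libraries against matched controls. The 12 others use a second control, set cell types against each other or compare treated libraries directly. Alternatives were other scalings, minimums, pseudocounts, joins and calls.

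Named are all 9 members, other keratins with 5 CPM in a library, up to 3 genes per list with the largest change, and the 5 genes most like Krt8 and Krt17. Cdh1, Epcam, Vim, Trp63, Grhl2 and the marker genes at 0 are given as defining markers beside it. Some genes that this rule names are not reported here. Members and lists were chosen with earlier results of these data known. Peak scores, which the authors deposited with peaks on mm9, were not used, since the annotation was GRCm38.p6. The ChIP input is not analysed here. Promoters are RefSeq entries for 5 of 9 members.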

Additional observations from a re-analysis of the deposited data

Results flagged for a closer look

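Krt7 and Krt19 were called in opposite directions after c-Jun in ESC and c-Jun in MEF. On the log2(CPM + 1) scale Krt7 changed by 4.90 in ESC and by -2.74 in MEF. Krt19 changed by 7.11 in ESC and by -1.14 in MEF. Both MEF changes rest on at most 23 counts, the delivery of c-Jun differed (doxycycline induction for 36 h against overexpression), and the difference between the cell types was not tested.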

How the results depend on the processing

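Of 130 recomputed counts of called members 118 stayed within 1.5 times, and of 152 log2 changes 142 did not move past their counting interval and none reversed. Many of the counts that stayed were 0 before and after, such as members lower with c-Jun in ESC or higher with Oct4 in KSM. The counts that moved were all in MEF or with Jdp2 in KSM, where few reads decide. With c-Jun in MEF 1 member was higher with no low filter (0 before), and 1 was lower at a 10 CPM minimum and with a pseudocount of 5 (2 before). With c-JunDN in MEF 0 were lower with a pseudocount of 5 (1 before). With Jdp2 in MEF 1 was lower by total counts, on the authors' TPM scale and at a 10 CPM minimum, and 0 with a pseudocount of 5 (2 before). With Oct4 in MEF 0 were lower at a 10 CPM minimum and with a pseudocount of 5 (1 before). With Jdp2 in KSM 5 were higher with no low filter and 1 with a pseudocount of 5 (2 before). The TPM scale moved the median of all genes by 0.38 for c-Jun in ESC and 0.17 for Oct4 in MEF, and total counts by 0.16 for c-Jun in ESC. An alternative chosen after seeing the data left out the induced ESC library: Pearson's r became -0.076 for Krt17 with Pfkfb4, -0.15 for Krt7 with Krt8, -0.01 for Krt7 with Krt19 and with Krt6a, and -0.14 for Krt19 with Krt17. No paired analysis was possible because each group has 1 library. The 4 other settings for peaks near the starts (a wider window and higher-scoring peaks, for each peak list) were not run, since no annotation of the peaks' build was used here. Levels under about 1.61 CPM cannot be told from 3 counts in the shallow libraries.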
